A study of Mus musculus with 9 samples.

Results

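Ddit3, Trib3, Cebpb, Cebpg, Cebpd, Nupr1, Sesn2, Ddit4, Gdf15 and Stc2 encode the CHOP, C/EBP and other effector proteins known from the stress response that ATF4 drives. These 10 genes were taken by symbol from the deposited table and account for 11 of its 29756 entries, because Ddit3 has a second, short entry. All 10 reached 1 FPKM in 3 or more of the 9 libraries, the filter for testing, which 11974 entries met. FPKM scales fragment numbers to the length of each gene and to the library, so levels of different genes are compared per length.

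RNA was sequenced from HT22 cells, a line of immortalised neurons from mouse hippocampus. Its 9 libraries are labelled as 3 of an intervention group, 3 of an experimental group and 3 of a control group, with no dose, time or genotype. Hemin, which is oxidised heme, and the micelle PPP8 appear in the series title, but no label assigns them to cultures, so the group names of the labels are used throughout. Whether replicates are separate cultures is not stated, so p-values reflect the spread among these libraries, which could be technical.

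When eIF2α is phosphorylated, general translation slows while ATF4 mRNA is translated more, and ATF4 dimers with C/EBP proteins activate genes for amino acid supply and for stress signalling. CHOP, the product of Ddit3, is one of those targets and dimerises with C/EBP family members. The effectors downstream include brakes on the growth kinase complex mTORC1 and secreted factors, and in neurons prolonged CHOP induction is known for its link to cell death.

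Of the 10 genes, 8 were higher in experimental than in control cells, as were 23.5% of all tested genes, Cebpd was lower, as were 50.5%, and Ddit4 did not pass the test. Cebpb and Gdf15, among the 8, were under 1 FPKM in every control library and met the filter through the other groups. In intervention against control cells 7 were higher (24.1% of tested genes) and 2 lower (41.1%). In intervention against experimental cells 5 were lower (3.60% of tested genes) and 0 higher (15.9%). Those 5 calls were lost when any 1 of 3 libraries was left out, while the differences kept their sign. Ddit3, Nupr1, Sesn2 and Gdf15 had the highest level in experimental and an intermediate one in intervention cells. Trib3 and Cebpg were as high in intervention as in experimental libraries within a few percent of their means, and Ddit4 was lower in intervention cells than in both other groups.

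To place the C/EBP-ATF element that ATF4 binds with a C/EBP partner, promoter windows from RefSeq (GRCm38.p6, 250 bases before to 50 after each start) were searched on both strands for TGATGNAA. Windows existed for 9 of the 10 members, all but Cebpd. The element was present in the windows of 2 members, Trib3 and Nupr1, and in 3.97% of all 32851 windows. Among tested genes with a window, 204 of 8400 (2.43%) held it. These 2 stretches are shown because they are the only matches among the members. Both are written 5′ to 3′ on the minus strand, which is the strand of the genes, and capitals mark the match, which reads TGATGNAA on the opposite strand.
Trib3, chr2:152344031-152344086: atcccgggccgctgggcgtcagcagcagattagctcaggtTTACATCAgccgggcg
Nupr1, chr7:126625533-126625620: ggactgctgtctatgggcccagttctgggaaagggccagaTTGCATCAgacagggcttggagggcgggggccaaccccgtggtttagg
The match in Trib3 begins at position 15 counted from the RefSeq start, and that in Nupr1 begins at position -110. These positions depend on the start used. In GENCODE M21 the minus-strand gene Trib3 begins at 152344032, so its match (152344039-152344046) lies upstream of the gene. Nupr1 begins there at 126630861, so its match (126625573-126625580) lies inside the gene. No member window held the cyclic AMP response element TGACGTCA (1.79% of all windows) or the ER stress element, CCAAT and CCACG separated by 9 bases (0.119% of all windows). A match is a string of letters and was not tested as a binding site.

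Ddit3, which encodes CHOP, lies at chr10:127290774-127296288 on the plus strand (mm10 positions here and below are those of GENCODE M21). It had 76.5, 87.2 and 82.8 FPKM in the intervention libraries, 101, 93.1 and 101 FPKM in the experimental libraries and 27.2, 23.7 and 23.5 FPKM in the control libraries. All intervention libraries were below all experimental ones and all of both were above every control library. In experimental against control cells the ratio of mean FPKM was 3.96, and the difference in log2(FPKM + 1) was 1.94 (SE 0.07, limma adjusted p = 2.72e-08), larger than that of 99.6% of tested genes. Intervention cells were 0.837 times the experimental level, a difference of -0.26 (SE 0.07, limma adjusted p = 0.0335), and 3.31 times the control level (1.69, SE 0.07, limma adjusted p = 7.61e-08). The short second entry of Ddit3, whose exons lie wholly inside those of the first, was listed at 0 in all libraries except experimental replicate 2, with 0.03 FPKM. Of Ddit3's 1713 exonic bases, 68 (3.97%) overlap Mars1 (Mars in GENCODE M21), the methionyl-tRNA synthetase gene on the opposite strand. Mars1 went the other way, with means of 30.7 FPKM in intervention, 23.1 in experimental and 37.5 in control cells.

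Trib3, a pseudokinase and known CHOP and ATF4 target that binds AKT, lies at chr2:152337422-152344032 on the minus strand. It had 36.6, 35.6 and 36.6 FPKM in intervention libraries, 35.6, 34.5 and 34.5 FPKM in experimental libraries and 17.2, 16.2 and 17.7 FPKM in control libraries. The intervention libraries were just above the experimental ones, without overlap, and both stood apart from the control libraries. Trib3 was 2.05 times as high in experimental as in control cells (log2 difference 0.99, SE 0.05, limma adjusted p = 8.21e-08) and 2.13 times as high in intervention as in control cells (1.05, SE 0.05, limma adjusted p = 9.81e-08). Between intervention and experimental cells the difference was 0.06 with a 95% interval of -0.05 to 0.16 (limma adjusted p = 0.393).

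Nupr1 encodes a small disordered chromatin protein that is induced by many stresses, and lies at chr7:126623249-126630861 on the minus strand. Its values were 50.3, 46.1 and 50.1 FPKM in intervention libraries, 58.1, 51.8 and 58.1 FPKM in experimental libraries and 17.3, 17.4 and 16.6 FPKM in control libraries. The intervention libraries were below the experimental ones without overlap, though intervention replicate 1 came close to experimental replicate 2. Nupr1 was 3.27 times as high in experimental as in control cells (log2 difference 1.65, SE 0.06, limma adjusted p = 2.67e-08) and 2.85 times as high in intervention as in control cells (1.46, SE 0.06, limma adjusted p = 6.48e-08). Intervention cells were 0.872 times the experimental level (-0.19, SE 0.06, limma adjusted p = 0.0453), the call nearest to the threshold of 0.05 among the 5 in this comparison. It was lost in 11 of 18 alternative fits, among them those of 2 groups, with no mean-variance trend, with a replicate block and with no filter on low values, with differences between -0.29 and -0.15 over all 18.

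**Figure D1:**
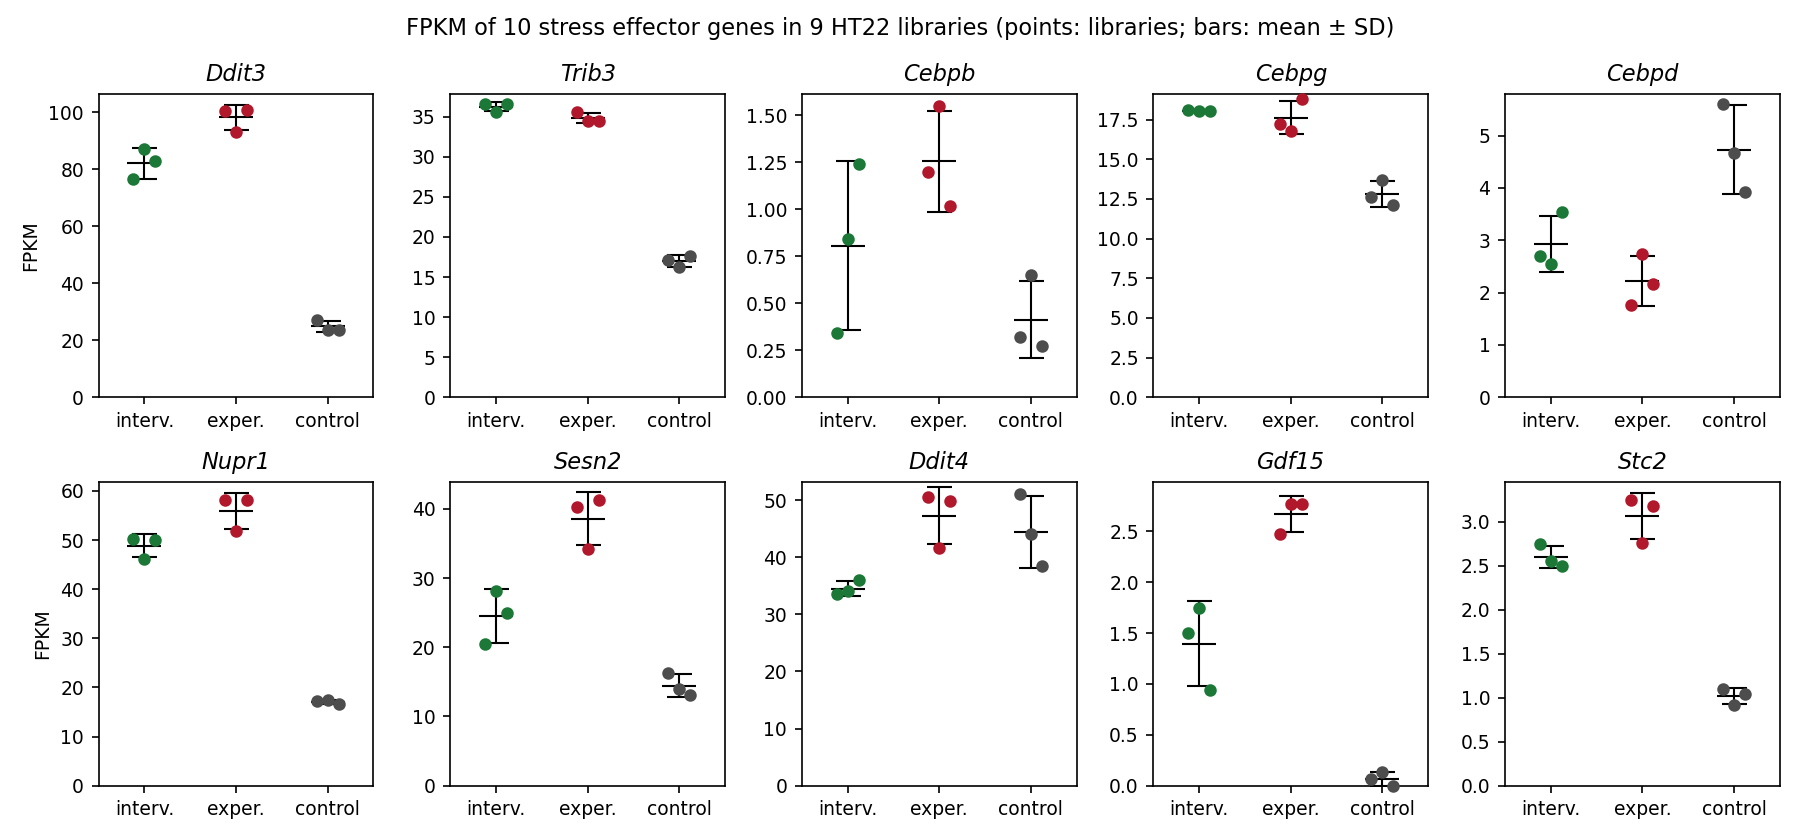
FPKM of the 10 genes (vertical axes from 0, each gene on its own scale) in intervention, experimental and control libraries, with points for libraries and bars for the mean ± SD (n = 3 each). Ddit3, Nupr1, Sesn2, Gdf15 and Stc2 are highest in experimental libraries, Trib3 and Cebpg differ little between intervention and experimental libraries, and Cebpd is highest in control libraries.

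The plot of FPKM by library shows the C/EBP genes split in level and direction. Cebpg, a short C/EBP protein that has no activation domain of its own and pairs with ATF4, is at chr7:35046422-35056573 on the minus strand. It had 18.1, 18.0 and 18.1 FPKM in intervention libraries, 17.2, 16.8 and 18.8 FPKM in experimental libraries and 12.6, 13.7 and 12.1 FPKM in control libraries. Values of both groups were above the control libraries and overlapped each other. The ratio was 1.37 in experimental against control cells (log2 difference 0.43, SE 0.06, limma adjusted p = 7.62e-05) and 1.41 in intervention against control cells (0.47, SE 0.06, limma adjusted p = 6.57e-05). Intervention and experimental cells differed by 0.04, with a 95% interval of -0.09 to 0.17 (limma adjusted p = 0.684).

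Cebpb encodes C/EBPβ, a factor of inflammatory and stress transcription that is made as activating and inhibitory isoforms, which a gene-level value cannot separate. It lies at chr2:167688915-167690418 on the plus strand and was near the floor of the data, with 0.34, 0.84 and 1.24 FPKM in intervention libraries, 1.20, 1.55 and 1.02 FPKM in experimental libraries and 0.32, 0.65 and 0.27 FPKM in control libraries. It passed the filter on low values through the experimental libraries and 1 intervention library, so its excess over control cells was favoured by the filter. Experimental libraries were above control libraries without overlap (log2 difference 0.68, SE 0.18, limma adjusted p = 0.00713, and 0.028 with no filter on low values), while the intervention libraries spanned values of both other groups. Neither intervention against experimental cells (-0.35, 95% interval -0.76 to 0.07, limma adjusted p = 0.198) nor intervention against control cells (0.33, 95% interval -0.08 to 0.75, limma adjusted p = 0.138) passed the test, although without intervention replicate 1 the second comparison did (limma adjusted p = 0.0148). Tmem189, which shares 312 of Cebpb's 1504 exonic bases (20.7%) on the opposite strand, was not called in any comparison, with means of 15.9 FPKM in intervention, 15.0 in experimental and 16.4 in control cells. These levels are far above those of Cebpb. No source used here says that strand was counted, so reads of Cebpb and Tmem189 cannot be told apart where they overlap. The part of Tmem189 reads in the Cebpb values was not tested.

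Cebpd, the gene of C/EBPδ, an acute-phase and inflammatory C/EBP factor, was the one member that fell in experimental cells. At chr16:15887286-15891031 on the plus strand, it had 2.69, 2.54 and 3.54 FPKM in intervention libraries, 1.76, 2.73 and 2.17 FPKM in experimental libraries and 5.61, 4.66 and 3.93 FPKM in control libraries. Every control library was above all 6 others, and the intervention and experimental libraries overlapped. Cebpd was 0.469 times the control level in experimental cells (log2 difference -0.83, SE 0.14, limma adjusted p = 0.000375) and 0.618 times in intervention cells (-0.55, SE 0.14, limma adjusted p = 0.00662). Spidr, a DNA repair gene on the opposite strand, shares 562 of Cebpd's 3746 exonic bases (15.0%) and had means of 2.94 FPKM in intervention, 2.5 in experimental and 5.09 in control cells. It was lower in experimental than in control cells by a similar amount (-0.80, SE 0.06, limma adjusted p = 1.98e-06), and because no source used here says that strand was counted, reads of the 2 genes cannot be told apart where they overlap.

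Of the members that restrain mTORC1, Sesn2 was higher in intervention cells than in control cells and Ddit4 lower, and both were lower in intervention than in experimental cells. Sesn2, a leucine sensor that inhibits the GATOR2 complex, is at chr4:132492032-132510501 on the minus strand and had 20.4, 28.1 and 25.01 FPKM in intervention libraries, 40.2, 34.2 and 41.3 FPKM in experimental libraries and 16.3, 14.0 and 13.1 FPKM in control libraries. The groups did not overlap and intervention cells lay between the other groups. Sesn2 was 2.67 times as high in experimental as in control cells (log2 difference 1.36, SE 0.12, limma adjusted p = 3.43e-06) and 1.70 times as high in intervention as in control cells (0.72, SE 0.12, limma adjusted p = 0.000417). At 0.636 times the experimental level in intervention cells (-0.64, SE 0.12, limma adjusted p = 0.0153), its difference was the lowest among the members on the log2(FPKM + 1) scale, and only 0.418% of tested genes had a lower one. Gdf15 had a lower ratio of means, 0.523, and a log2 difference of -0.63.

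Ddit4, whose product REDD1 restrains mTORC1 through the TSC complex, is at chr10:59949669-59951834 on the minus strand and was abundant in every group. It had 33.5, 34.0 and 36.0 FPKM in intervention libraries, 50.5, 41.6 and 49.8 FPKM in experimental libraries and 51.0, 44.0 and 38.4 FPKM in control libraries. Experimental and control libraries overlapped (log2 difference 0.09, 95% interval -0.14 to 0.32, limma adjusted p = 0.441), and each intervention library was below all 6 others. Intervention cells were 0.730 times the experimental level (-0.44, SE 0.10, limma adjusted p = 0.0221) and 0.776 times the control level (-0.35, SE 0.10, limma adjusted p = 0.0122). Scaling of the libraries by their median ratio to a common profile changed both calls against control cells, giving 0.33 for experimental (limma adjusted p = 0.0147) and -0.21 for intervention (limma adjusted p = 0.105).

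Of the secreted members, Gdf15, a TGF-β family hormone that signals through a receptor of the hindbrain, is at chr8:70629393-70632456 on the minus strand. It had 1.5, 1.75 and 0.94 FPKM in intervention libraries, 2.47, 2.77 and 2.77 FPKM in experimental libraries and 0.07, 0.13 and 0 FPKM in control libraries. The groups did not overlap. Gdf15 passed the filter on low values through the intervention and experimental libraries, so its excess over control cells was favoured by the filter. Its difference was 1.78 (SE 0.13, limma adjusted p = 8.41e-07) in experimental against control cells and 1.15 (SE 0.13, limma adjusted p = 2.5e-05) in intervention against control cells, with no fold change given because control replicate 3 was listed at 0. Intervention cells had 0.523 times the experimental mean (-0.63, SE 0.13, limma adjusted p = 0.0161).

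Stc2 encodes stanniocalcin 2, a secreted glycoprotein that inhibits the protease PAPP-A, and is at chr11:31357307-31370074 on the minus strand. It had 2.74, 2.55 and 2.5 FPKM in intervention libraries, 3.25, 2.76 and 3.18 FPKM in experimental libraries and 1.10, 0.92 and 1.04 FPKM in control libraries. It was 3.003 times as high in experimental as in control cells (log2 difference 1.01, SE 0.08, limma adjusted p = 1.22e-06) and 2.55 times as high in intervention as in control cells (0.83, SE 0.08, limma adjusted p = 7.41e-06). Although its intervention and experimental libraries did not overlap, the difference of -0.17 (95% interval -0.34 to -0.01) did not pass after adjustment (limma adjusted p = 0.119), but did under quantile normalization (-0.29, limma adjusted p = 0.0447).

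In experimental against control cells, 9 of the 10 members were called, where 74.0% of tested genes were. These were the 8 higher and 1 lower ones named, among them Cebpb and Gdf15, whose higher calls were favoured by the filter on low values. Groups were without overlap for the same number of members, 8 higher and 1 lower, against 76.2% of tested genes (24.7% higher and 51.5% lower). The median difference of the members was 1.0 on the log2 scale and that of all tested genes -0.21. Most called genes were lower (2809 higher and 6047 lower), and the median of all genes moved with the scaling. By median ratios it was -0.00022, with 4336 genes higher and 4350 lower, and by quantiles 4178 and 4400. Under median-ratio scaling 9 members were higher, Ddit4 being added, and 1 lower.

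In intervention against control cells, 9 members were called, where 65.3% of tested genes were. Ddit3, Trib3, Cebpg, Nupr1, Sesn2, Gdf15 and Stc2 were higher, and Cebpd and Ddit4 lower. Gdf15 met the filter on low values only through the intervention and experimental libraries, which favoured its call. Without overlap between groups the members' counts were also 7 and 2, against 68.7% of tested genes (25.8% and 42.9%). The members' median difference was 0.78 and that of all tested genes -0.10. Over all genes 2890 were higher and 4926 lower, against 4009 and 3741 by median ratios and 3822 and 3844 by quantiles.

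In intervention against experimental cells, 5 members were called, where 19.5% of tested genes were. Sesn2, Gdf15, Ddit4, Ddit3 and Nupr1 were lower. At an unadjusted p under 0.05, limma found 6 members, Stc2 being the sixth, all lower, and 4550 of all 11974 tested genes in either direction. Groups did not overlap for 6 members that were lower and 1 that was higher (Trib3), against 42.5% of tested genes (8.79% lower and 33.7% higher). The members' median difference was -0.22 and that of all tested genes 0.10. Over all genes 1906 were higher and 431 lower, but 647 and 798 by median ratios and 466 and 588 by quantiles, while the members' counts were 0 higher with 5 and 6 lower. This comparison and that of experimental against control cells share the experimental libraries.

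**Figure D2:**
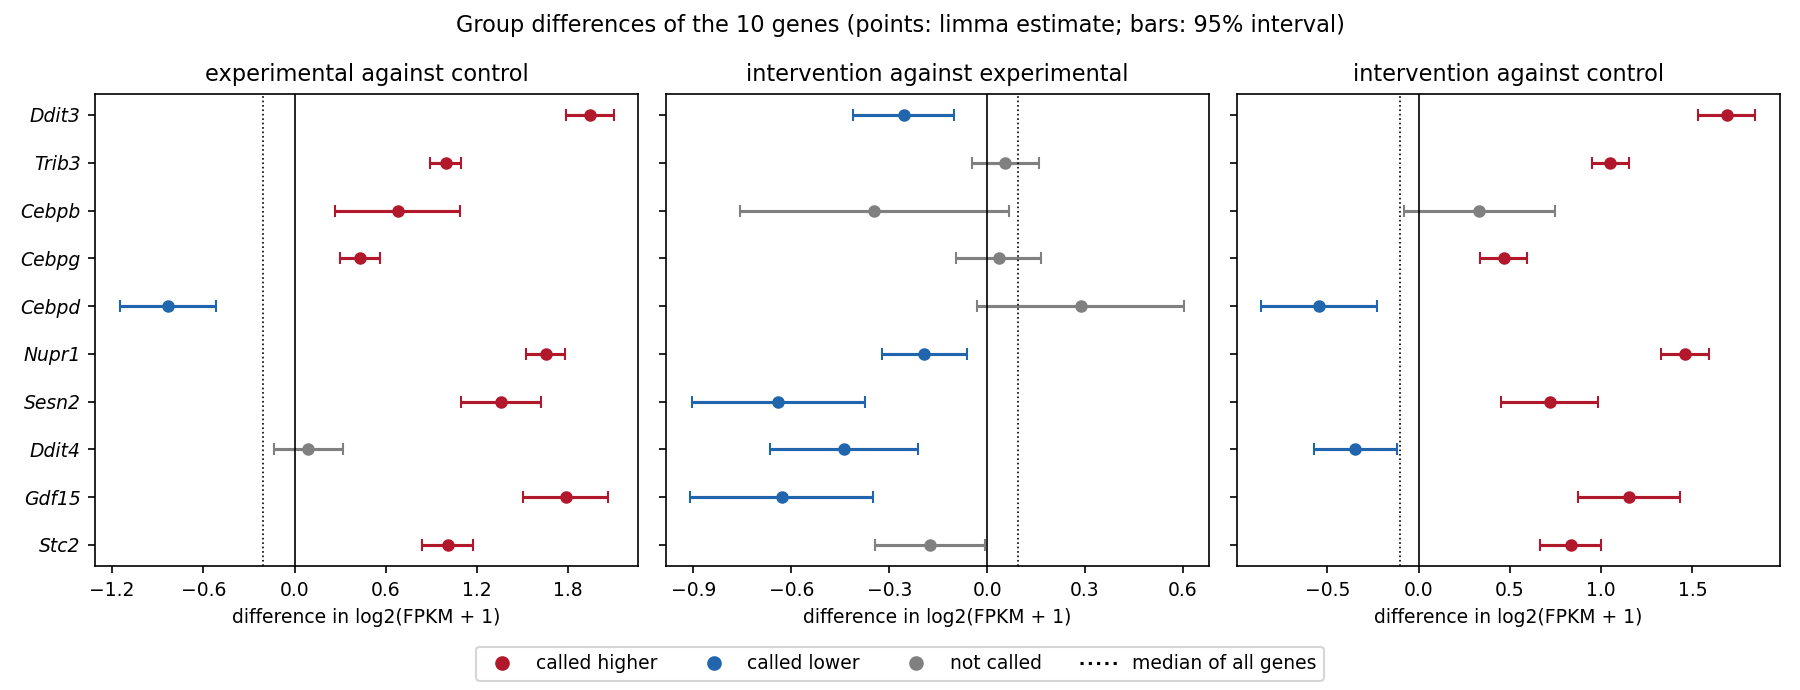
Differences in log2(FPKM + 1) of the 10 genes (horizontal axes) in the 3 comparisons, with the limma estimate as a point, its 95% interval as a bar, colours for the call at an adjusted p under 0.05 and a dotted line at the median of all tested genes. The differences from control cells run up to 1.94 for Ddit3, and those between intervention and experimental cells lie between -0.64 for Sesn2 and 0.29 for Cebpd.

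Between intervention and experimental cells, the calls of the members were lost when any 1 of 3 libraries was left out, and the differences stayed similar in size. Without experimental replicate 1, experimental replicate 3 or intervention replicate 1, limma called 0 of the 10 members, with 5, 5 and 6 at an unadjusted p under 0.05, and over all genes it called 1, 4 and 6, with 3336, 3363 and 3159 at an unadjusted p under 0.05. The highest adjusted p with any library left out was 0.0641 for Sesn2, 0.0653 for Gdf15, 0.0850 for Ddit4, 0.125 for Ddit3 and 0.154 for Nupr1. Without intervention replicate 3, 3 members and 950 genes were called. With each of the 9 libraries left out in turn, the difference ranged from -0.74 to -0.52 for Sesn2, from -0.74 to -0.48 for Gdf15, from -0.53 to -0.39 for Ddit4, from -0.30 to -0.21 for Ddit3 and from -0.25 to -0.15 for Nupr1. Against control cells, no call of a member in experimental or intervention cells was lost with any library left out.

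**Figure D3:**
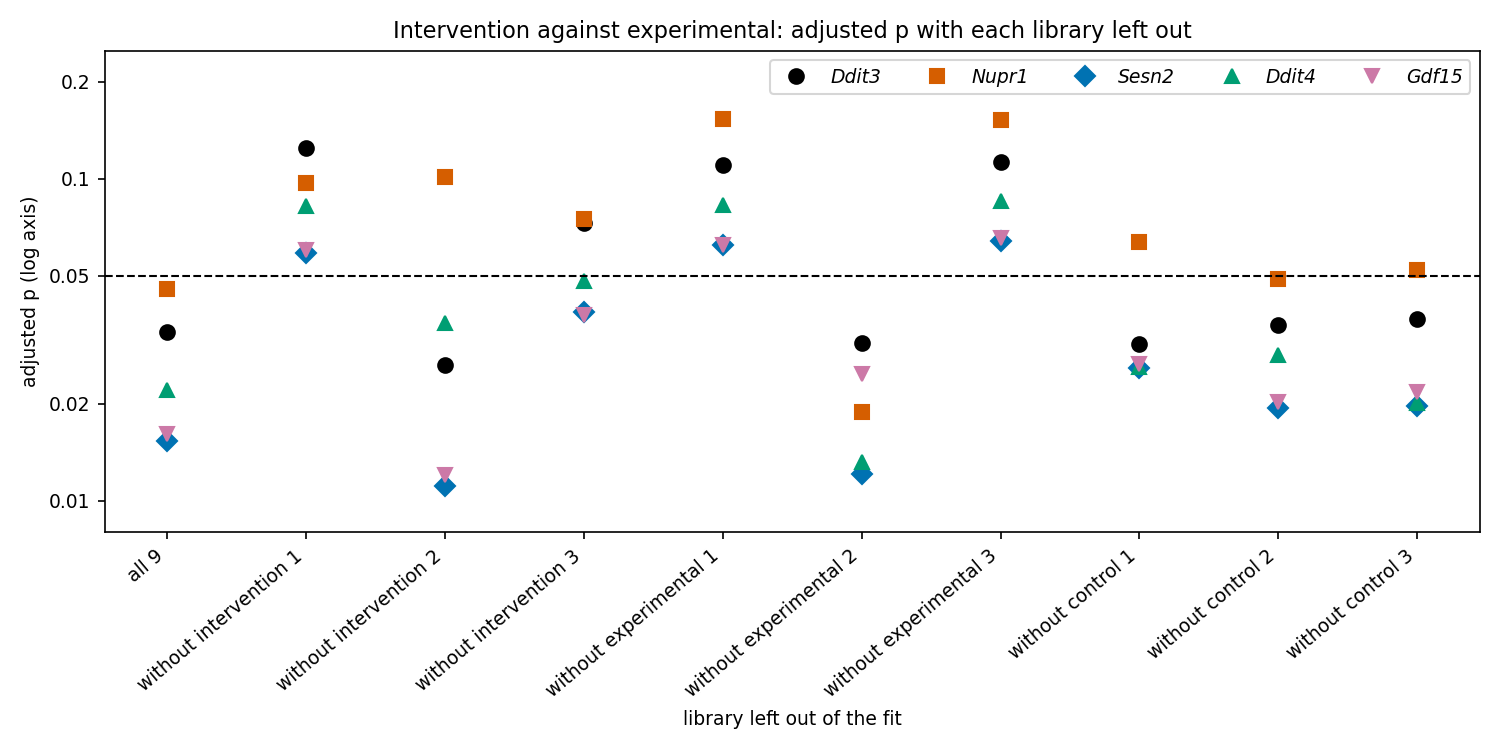
Adjusted p (log axis) of the 5 called genes in intervention against experimental cells, with all 9 libraries and with each library left out; the dashed line is at 0.05. All 5 genes lie above the line without intervention replicate 1, experimental replicate 1 or experimental replicate 3, and Sesn2, Gdf15 and Ddit4 lie below it in the other fits.

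The libraries of a group varied together for some members. Experimental replicate 2 was the lowest experimental library for Ddit3, Nupr1, Sesn2, Ddit4 and Stc2, at 34.2 FPKM for Sesn2 against 40.2 and 41.3 in the others. Intervention replicate 1 was the lowest intervention library for Ddit3, Sesn2, Ddit4 and Cebpb. Across tested genes, which are not independent replicates, experimental replicate 2 and intervention replicate 2 were correlated as closely with a library of the other group (r = 0.992 for both) as with the least similar library of their own (r = 0.992 and 0.991).

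Per length, Ddit3 was the most abundant member in intervention cells (82.2 ± 5.41 FPKM, SD, n = 3) and experimental cells (98.2 ± 4.42 FPKM), while Ddit4 led in control cells (44.5 ± 6.33 FPKM). By level, Ddit3 stood at the 96.0th, 96.7th and 83.6th percentile of tested genes in intervention, experimental and control cells. In experimental cells the order after Ddit3 was Nupr1, Ddit4, Sesn2, Trib3, Cebpg, Stc2, Gdf15, Cebpd and Cebpb, and the ranges of the neighbours Sesn2 and Trib3, Stc2 and Gdf15, and Gdf15 and Cebpd overlapped. In intervention cells Trib3 stood above Ddit4, with overlapping ranges, and Sesn2 came next. In control cells Ddit4 and Ddit3 were followed by Nupr1, Trib3, Sesn2 and Cebpg, each overlapping the next, and Gdf15 was last.

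Ratios of 2 members within a library do not change when all its values are scaled by a common factor. Quantile normalization is not such a scaling and can change them. Ddit3 over Trib3 was 2.09, 2.45 and 2.26 in intervention libraries, 2.83, 2.70 and 2.92 in experimental libraries and 1.58, 1.47 and 1.33 in control libraries. The 3 groups did not overlap, with log2 differences of 0.95 for experimental against control, -0.32 for intervention against experimental and 0.63 for intervention against control. Each exact 2-sided permutation p was 0.1, the smallest that 3 against 3 allows, and 0.2 adjusted over the 12 tests of ratios.

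Sesn2 over Ddit4 was 0.609, 0.828 and 0.695 in intervention libraries, 0.798, 0.823 and 0.830 in experimental libraries and 0.319, 0.317 and 0.342 in control libraries. It was higher in every experimental and intervention library than in every control library, by 1.33 and 1.11 on the log2 scale (exact permutation p = 0.1 each), and the intervention and experimental libraries overlapped (-0.21, exact permutation p = 0.3). Cebpb over Cebpg was higher in experimental than in control libraries without overlap (1.23, exact permutation p = 0.1), and overlapped in the other comparisons. Ddit3 over Cebpb overlapped in all 3 comparisons, where the low level of Cebpb gave it a wide spread (66.7 to 225 in intervention libraries).

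**Figure D4:**
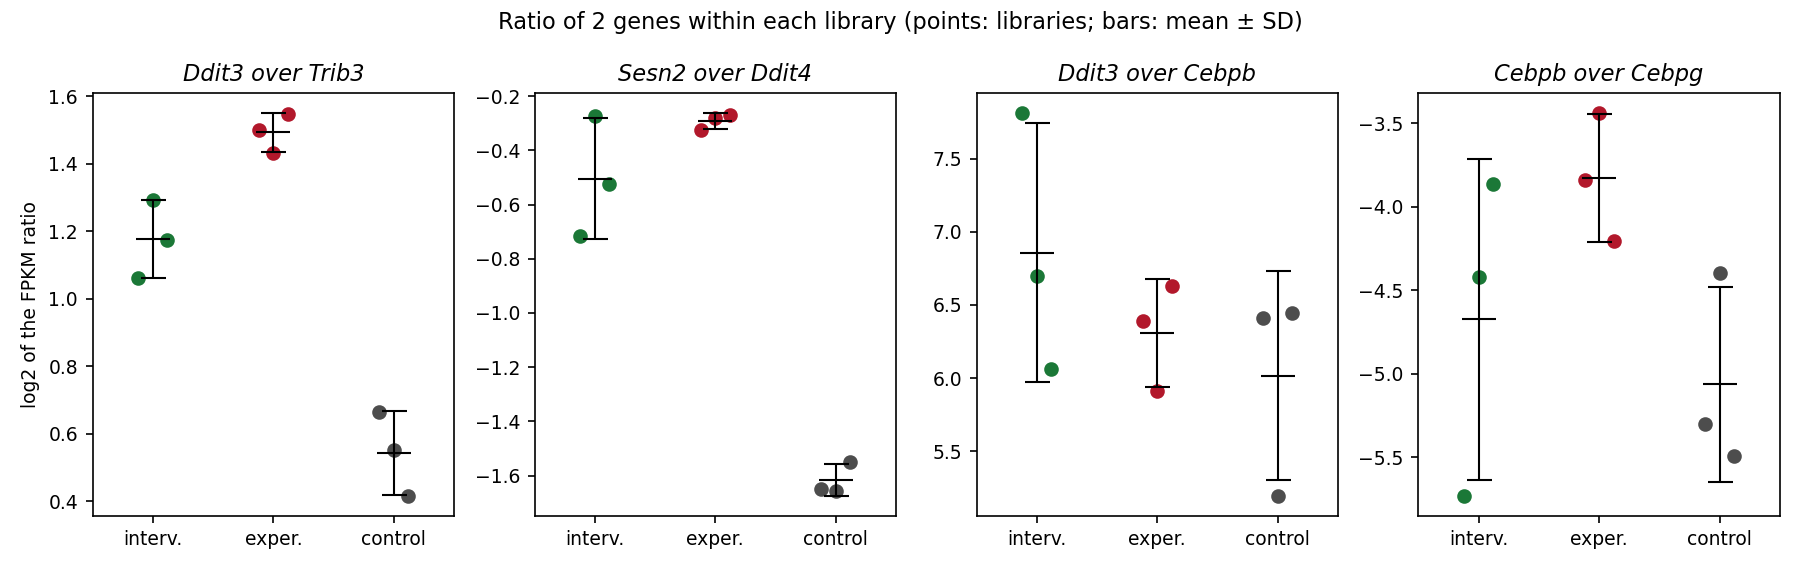
Log2 of the FPKM ratio of 2 genes within each library (vertical axes, each pair on its own scale) in intervention, experimental and control libraries, with points for libraries and bars for the mean ± SD (n = 3 each). Ddit3 over Trib3 separates the 3 groups, and Sesn2 over Ddit4 separates the control libraries from the others.

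Upstream of the members, a list of 13 core genes of the integrated and unfolded protein responses held 12 tested genes, of which 8 were higher and 2 lower in experimental than in control cells (median log2 difference 0.47), where 23.5% and 50.5% of all tested genes were. Atf4 itself averaged 309 ± 4.85 FPKM in intervention, 298 ± 3.71 in experimental and 215 ± 11.5 in control cells (SD, n = 3 each). Its differences from control cells were 0.47 in experimental (SE 0.05, limma adjusted p = 1.06e-05) and 0.52 in intervention cells (SE 0.05, limma adjusted p = 8.91e-06), and intervention and experimental cells differed by 0.05 (95% interval -0.06 to 0.16, limma adjusted p = 0.453). Atf3 was not tested, with means of 0.03 FPKM in intervention, 0.127 in experimental and 0.0167 in control cells.

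The phosphatase subunit gene Ppp1r15a (GADD34), a CHOP target that reverses eIF2α phosphorylation, had 30.7, 48.8 and 41.9 FPKM in intervention libraries, 83.8, 60.4 and 80.3 FPKM in experimental libraries and 10.1, 9.13 and 8.87 FPKM in control libraries. It showed the largest changes of the list, at 2.86 in experimental against control cells (SE 0.16, limma adjusted p = 2.37e-07) and -0.88 in intervention against experimental cells (SE 0.16, limma adjusted p = 0.0153). Its constitutive relative Ppp1r15b changed by 0.66 and -0.27 in the same comparisons, the ER stress sensor gene Atf6 by 1.07 and -0.34, and the antioxidant factor gene Nfe2l2 by 0.68 and -0.22, all past the test. Xbp1 was higher in experimental than in control cells by 0.88 and differed by -0.01 between intervention and experimental cells (limma adjusted p = 0.902).

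Among the eIF2α kinase genes, Eif2ak2 (PKR) and Eif2ak4 (GCN2) were lower in experimental than in control cells (log2 differences -0.96 and -0.44), and Eif2ak3 (PERK) was higher (0.17, limma adjusted p = 0.0134), a call that was lost on the TPM scale. The core list held 7 higher genes in that comparison, not 8, on the TPM scale and also without experimental replicate 1. Eif2ak1, the heme-regulated kinase HRI, did not pass in any comparison (-0.05, 0.10 and 0.05 for experimental against control, intervention against experimental and intervention against control). It was called higher in both comparisons with control cells by median ratios and by quantiles. Eif2s1, which encodes eIF2α, was 0.48 higher in experimental and 0.45 higher in intervention than in control cells. Atf5 was higher in intervention than in control cells (0.27, limma adjusted p = 0.011) but not past the test in experimental cells (0.08). In intervention against experimental cells 4 of the 12 were lower and Eif2ak2 was higher (0.48, SE 0.08, limma adjusted p = 0.0151). Of all tested genes 3.60% were lower and 15.9% higher in that comparison.

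**Figure D5:**
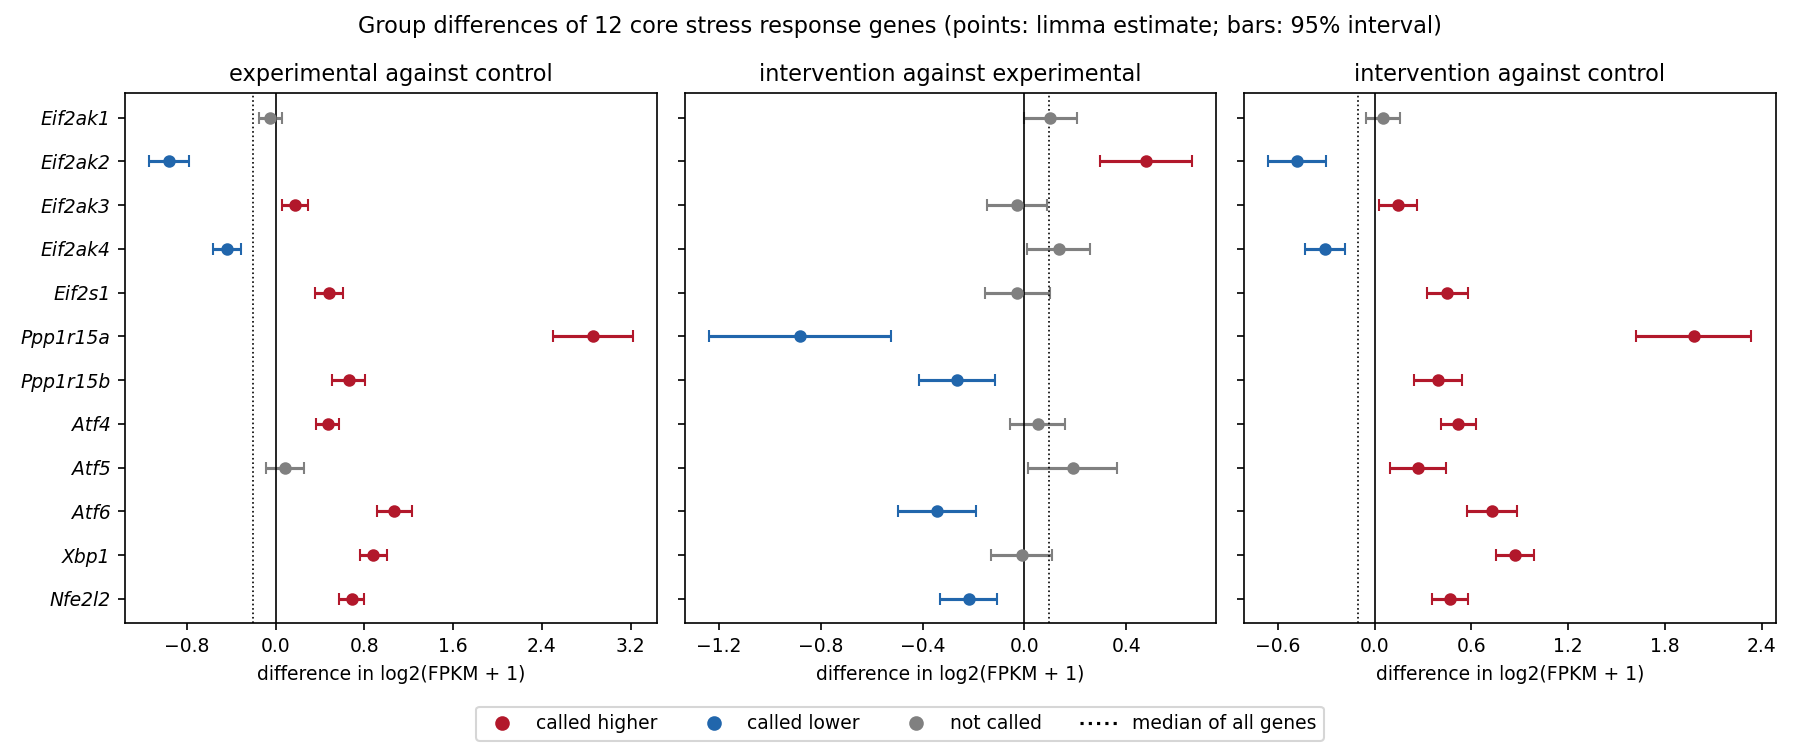
Differences in log2(FPKM + 1) of 12 core stress response genes (horizontal axes) in the 3 comparisons, with the limma estimate as a point, its 95% interval as a bar, colours for the call at an adjusted p under 0.05 and a dotted line at the median of all tested genes. Ppp1r15a stands farthest to the right against control cells (2.86 in experimental and 1.98 in intervention cells) and farthest to the left between intervention and experimental cells (-0.88).

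Of 35 tested genes in a list of other ATF4 and CHOP targets, 30 were higher and 1 lower in experimental than in control cells (median 0.80). Of all tested genes 23.5% were higher and 50.5% lower (median -0.21). In intervention against control cells 30 were higher and 0 lower (median 0.75), against 24.1% and 41.1% of all tested genes (median -0.10). At an unadjusted p under 0.05 limma gave the same counts for the list, and 8186 of 11974 genes over all. Fgf21, at 0, 0.30 and 0.32 FPKM in control libraries, met the filter through the other groups, which favoured an excess over control cells. Slc3a2, the heavy chain of amino acid exchangers, changed by 3.10 in experimental against control cells (limma adjusted p = 2.75e-08), Slc6a9, a glycine transporter, by 1.63, and Nars, asparaginyl-tRNA synthetase, by 1.42. Cth, which makes cysteine, was 2.31 higher in intervention than in control cells (limma adjusted p = 5.83e-08). It was also high in experimental cells, with means of 40.6 FPKM in intervention, 46.6 in experimental and 7.38 in control cells. Between intervention and experimental cells 10 were lower and 1 higher (median -0.06), against 3.60% and 15.9% of all tested genes (median 0.10). Slc3a2 (-0.61), the arginine transporter gene Slc7a1 (-0.39) and the amino acid transporter gene Slc38a2 (-0.34) were among the lower ones. The exception in both directions was Slc7a11, the cystine importer, at -3.11 in experimental against control cells and 3.41 in intervention against experimental cells (limma adjusted p = 1.2e-08 and 8.37e-08). Of all genes in the pathway lists, Slc7a11 alone was also called in intervention against experimental cells without experimental replicate 1, experimental replicate 3 or intervention replicate 1. The other calls in the lists for that comparison, Ppp1r15a included (limma adjusted p = 0.0621, 0.0641 and 0.0567), were lost there.

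Of 19 tested targets of ATF6 and XBP1, the other arms of the unfolded protein response, 17 were higher and 0 lower in experimental than in control cells (median 0.42). Of all tested genes 23.5% and 50.5% were (median -0.21). In intervention against control cells 18 were higher and 0 lower, against 24.1% and 41.1% of all tested genes. At an unadjusted p under 0.05 limma gave the same list counts, and 9063 and 8186 of 11974 genes over all. The ER chaperone gene Hspa5 (BiP) averaged 441 ± 63.2 FPKM in intervention, 546 ± 27.3 in experimental and 101 ± 3.10 in control cells (SD, n = 3 each). Between intervention and experimental cells 0 were higher (2 at an unadjusted p under 0.05 by limma) and 2 lower, Dnajb9 (-0.49, limma adjusted p = 0.0186) and Hspa5 (-0.32, limma adjusted p = 0.0355, and 0.0664 by quantiles). Of all tested genes 15.9% were higher and 3.60% lower there, and 4550 of 11974 had an unadjusted p under 0.05 by limma.

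Of 14 listed paralogs of the members, 7 were tested, and in experimental against control cells 2 of these were higher and 5 lower (median -0.83). More calls were lower than higher among all tested genes too (50.5% and 23.5%, median -0.21). Sesn2's relatives Sesn1 and Sesn3 were lower (-0.61 and -0.83), as was Trib3's relative Trib2 (-0.93), each past the test in both comparisons with control cells. Gdf11 (-1.15) and Inhba (-0.84), which encode other TGF-β family ligands, were lower too. Cebpz, a C/EBP-named gene of ribosome biogenesis, was 0.53 higher, and Trib1 was 0.35 higher (limma adjusted p = 0.014) and was the only paralog called in intervention against experimental cells (-0.42, limma adjusted p = 0.0294). In that comparison 3.60% of all tested genes were called lower. Cebpa, Cebpe, Nupr1l, Ddit4l, Stc1 and Tgfb1 were below the filter.

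Of 18 other genes of mTORC1, its regulators and its substrates tested, 4 were higher and 10 lower in experimental than in control cells (8 and 8 by median ratios, 7 and 8 by quantiles). Eif4ebp1 is also counted in the list of other ATF4 and CHOP targets. These shares are near the 23.5% and 50.5% of all tested genes, and the median of the list (-0.20) is near that of all genes (-0.21). The activator Rheb (0.86) and the inhibitor Akt1s1 (PRAS40, 1.03) were higher, and Wdr24 of GATOR2 (-0.70) and the arginine sensor Castor2 (-0.94) were lower. Castor1, also among the lower ones, met the filter only through the control libraries (1.53, 1.48 and 1.22 FPKM), which favoured its call. In intervention against control cells 5 were higher and 8 lower (8 and 8 by median ratios), against 24.1% and 41.1% of all tested genes. In intervention against experimental cells Wdr24 (0.29, limma adjusted p = 0.0156) and Depdc5 (0.23, limma adjusted p = 0.0381) were higher, with 7 higher and 0 lower at an unadjusted p under 0.05, and neither was called by quantiles. Of all tested genes 15.9% were higher and 3.60% lower there, and 4550 of 11974 had an unadjusted p under 0.05 by limma.

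Of 12 listed target genes of C/EBPβ and C/EBPδ, 8 were tested, and 2 were higher and 4 lower in experimental than in control cells (3 and 3 by median ratios), again near the 23.5% and 50.5% of all tested genes. Hp had 0.04, 0 and 0.55 FPKM in experimental libraries. It met the filter only through control and intervention libraries, which favoured a lower call in experimental cells. Ptgs2, the prostaglandin synthase COX-2, averaged 107 ± 31.9 FPKM in intervention, 248.6 ± 47.6 in experimental and 5.71 ± 0.437 in control cells (SD, n = 3 each). It was called in all 3 comparisons, at 5.20 in experimental against control, -1.23 in intervention against experimental and 3.97 in intervention against control cells. Socs3, a cytokine signalling inhibitor, was also higher in experimental than in control cells (0.40) and lower in intervention than in experimental cells (-0.44), and the chemokine gene Ccl2 was lower in experimental than in control cells (-1.15), as was the pattern recognition gene Ptx3 (-0.80). In intervention against experimental cells 2 of the 8 were higher and 2 lower, against 15.9% and 3.60% of all tested genes. The higher ones were Ccl2 (0.43, limma adjusted p = 0.0308) and C3, a complement gene (0.28, limma adjusted p = 0.0417), and neither was called by median ratios or quantiles. In intervention against control cells 1 was higher and 2 lower, against 24.1% and 41.1% of all tested genes.

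The genes nearest in pattern on the log2(FPKM + 1) scale were found by the distance between their 2 log2 differences, experimental against control and intervention against experimental, over 7354 tested genes of at least 5 FPKM on average. The distance uses the 9 libraries and 3 group means. Among the nearest to Ddit3 were Prdx6, a peroxidase (distance 0.0234), Ywhag, a 14-3-3 protein, Hspb8, a small heat shock protein, and Steap1, a metalloreductase (distance 0.15). Prdx6 averaged 64.9 FPKM in intervention, 77.9 in experimental and 19.9 in control cells. Nearest to Sesn2 was Gpat3 (0.0577), to Nupr1 Mdn1 (0.00846), to Trib3 Psmc6 (0.0307), to Cebpg Urb2 (0.0117), to Cebpb Gadd45g (0.0327), to Cebpd Ppp2r5b (0.00291), to Stc2 Nop14 (0.00185) and to Gdf15 Gm16310 (0.0773). For Cebpb, Cebpd, Stc2 and Gdf15, which had a few FPKM or less, adding 1 shrinks the difference, so a small distance does not mean a like fold. Nop14 averaged 42.5 FPKM in experimental and 20.6 in control cells, a smaller ratio than the 3.003 of Stc2, and Gm16310 averaged 15.4 FPKM in experimental and 3.86 in control cells, where Gdf15 was near 0. Nearest to Ddit4 was Klf4, a zinc-finger factor (0.0188), with 23.2 FPKM in intervention, 31.4 in experimental and 29.2 in control cells.

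FPKM summed to between 316912 and 339943 per library, and 11154 to 11732 entries reached 1 FPKM in a library. Of 10 neuron markers, Tubb3, Snap25, Camk2a and Eno2 reached 1 FPKM in any library and the defining markers Rbfox3, Map2, Syt1, Nefl, Dcx and Stmn2 did not. The list summed to 9.49 to 11.1 FPKM in intervention, 12.5 to 12.8 in experimental and 12.9 to 18.1 in control libraries. No marker of astrocytes, oligodendrocytes or endothelium (5 each) reached 1 FPKM in any library, and of 4 erythroid markers only Hbb-bs did. Of 6 microglia markers only Tmem119 did, at means of 1.63 FPKM in intervention, 0.930 in experimental and 10.3 in control cells, and the list summed to 1.45 to 2.23, 0.98 to 1.45 and 9.92 to 11.3 FPKM in these groups. The part of the neuron markers and of Tmem119 in the results was not tested. In bulk samples of a cell line, fewer cells that express a gene and less of its RNA per cell cannot be told apart.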

How the data were processed

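The authors deposited 1 table of FPKM for 9 HT22 libraries (29756 entries, 2 decimals). The submitters' processing notes name build mm10; per the labels' protocols, RNA came from a Qiagen kit and libraries from a SMARTer mRNA kit. Which aligner, counter, annotation and strand setting were used is not given in the sources used here. Depth is unknown: of 8245 values above 0 for genes shorter than 200 nt, 1351 (16.4%) were worth less than 1 read at 200 M reads per library, so whole reads were not recovered and precision comes from the spread between replicates.

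Values were transformed to log2(FPKM + 1), which understates changes of low genes. Entries with at least 1 FPKM in at least 3 libraries (11974) were fitted with limma 3.58.1 in R 4.3.3 (trend, all 9 libraries, no covariate). Calls are at an adjusted p (Benjamini-Hochberg) under 0.05, 2-sided. "Without overlap" means that all values of one group lie above all of the other. The members and lists were chosen with earlier results of these data known. All members are named, with every core stress response gene and paralog, up to 4 genes of other lists per comparison with the smallest adjusted p, and the nearest genes by pattern, of which 1 is not reported here. Scripts were tested on simulated data. Alternatives were median-ratio, quantile and TPM scaling, a pseudocount of 0.1, no filter, a mean of at least 5 FPKM, fits of 2 groups, no trend, a replicate block and leaving out each library.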

Additional observations from a re-analysis of the deposited data

How the results depend on the processing

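Over 528 pairs of a result and an alternative, for 30 results (10 members in 3 comparisons), 494 stayed on their side of the threshold, 31 lost the call and 3 gained it. Each result had at most 18 alternatives and the members share them, so the pairs are not independent. No called difference changed sign. Of those not called, Trib3 and Cebpg in intervention against experimental cells turned negative by median ratios (-0.040 and -0.058), as did Cebpg by quantiles (-0.026), and Ddit4 in experimental against control cells without control replicate 3 (-0.0085). Of the 31 lost, 30 were in intervention against experimental cells. There, limma called 5 members and 2337 genes. The counts were 0 (5 at an unadjusted p under 0.05) and 358 (5598 at an unadjusted p under 0.05) with no filter on low values, when 29410 entries were tested. They ranged from 0 to 5 and from 1 to 2557 with a library left out. All genes came to 1445 by median ratios and 1054 by quantiles. Same-numbered libraries varied together no more (r = -0.182 to 0.110) than differently numbered ones (r = -0.14 to 0.149). That gave no sign of pairing by number, but 3 libraries a group cannot exclude it. With a replicate block 3 members and 1268 genes were called, and Ddit3 (adjusted p = 0.0658) and Nupr1 (0.0633) lost their calls. With a pseudocount of 0.1 Gdf15 lost its call (0.0668). With only genes of at least 5 FPKM on average (7361, among them 6 members), 5 members and 5702 genes were called in experimental against control cells, against 9 and 8856. For intervention against control cells it was 5129 genes, against 7816. Depth is unknown and limits Cebpb, Gdf15, Stc2 and Cebpd most, since they had a few FPKM or less.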
